A study of Homo sapiens with 27 samples.

Results

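The ribosome biogenesis factors described here are 40 genes that act in the making of ribosomes, taken as the rows of the deposited expression table that carry their symbols. All 40 were found among the 10470 genes of the table. By role they are 5 genes of RNA polymerase I and ribosomal DNA transcription (POLR1A, POLR1B, POLR1C, UBTF and MYBBP1A), 6 further nucleolar proteins (NCL, NPM1, NOLC1, DDX21, LYAR and GNL3) and 7 core proteins of small nucleolar ribonucleoproteins, or snoRNPs (FBL, NOP56, NOP58, DKC1, NHP2, GAR1 and RRP9). The rest are 11 small subunit factors (HEATR1, UTP4, UTP15, WDR43, UTP20, NOP14, DDX10, RRP12, BYSL, TSR1 and NOB1) and 11 large subunit factors (BOP1, PES1, WDR12, NOP2, NOP16, RRP1, RRS1, NIP7, DDX18, EBNA1BP2 and PPAN). The mean level over the 27 libraries reached the 10 TPM asked for in the tests (TPM is a level scaled so that every library has the same total) for 38 of them. The exceptions were UTP20, with a mean of 7.18 TPM, and POLR1A, with 8.41 TPM. None of the members' values was 0.

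RNA was measured with the Ion AmpliSeq Transcriptome panel, which counts 1 amplified stretch per gene, in DLD1, an established line from a human colorectal carcinoma. Cells were taken 72 h after they had received small interfering RNAs (siRNAs). The siRNAs were directed against VPS37A, VPS37B and VPS37C, paralogs whose proteins are alternative subunits of ESCRT-I, a complex that sorts ubiquitinated membrane proteins into lysosomes. The 9 groups of 3 replicates are siVPS37ABC, siVPS37AB, siVPS37AC, siVPS37BC, siVPS37A, siVPS37B, siVPS37C, the control siRNA group siCTRL, and NT, which was left untransfected. Each paralog was targeted by 1 siRNA sequence in all groups that carry its name, so an effect of a siRNA and an effect of losing its target cannot be told apart. Which control siRNAs make up siCTRL is not given in the sources used here. The replicate number is also the batch in the labels, and the labels do not say that the replicates were separate cultures, so p-values measure the spread between these libraries.

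Ribosomes are assembled in the nucleolus. RNA polymerase I copies the ribosomal DNA into a long precursor, snoRNPs modify it, and ordered sets of factors fold and cut it into the RNAs of the small and the large subunit. Growing tumour cells make ribosomes at a high rate, and the genes of these factors are known to be transcribed together under growth-promoting signals. Many of their promoters hold the E-box CACGTG, the site of transcription factors that dimerise with MAX.

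Promoter sequences from RefSeq on GRCh38.p14, from 250 bases before to 50 bases after the annotated start, were matched by symbol for 34 of the 40 members. The E-box, whose letters CACGTG read the same on both strands, was present in 11 of the 34 (32.4%). It was present in 30.4% of the 92 promoters matched for other ribosome biogenesis genes, in 4.84% of 62 promoters of cytosolic ribosomal proteins, in 11.4% of 5215 promoters of the tested genes and in 7.43% of all 27305 promoters of the reference table. A match describes letters in this window and no binding was measured. The 30-base windows of the 5 E-box members that later passed the threshold for a siRNA or a knockdown are shown, 5′ to 3′ on the strand of the gene, with the E-box in capitals.
MYBBP1A, chr17:4555340-4555369, minus strand: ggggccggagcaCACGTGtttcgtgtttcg
WDR43, chr2:28894658-28894687, plus strand: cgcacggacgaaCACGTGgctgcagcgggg
EBNA1BP2, chr1:43172790-43172819, minus strand: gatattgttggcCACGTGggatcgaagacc
UTP20, chr12:101280083-101280112, plus strand: cttttttccgtcCACGTGacccactcaggc
UTP4, chr16:69132621-69132650, plus strand: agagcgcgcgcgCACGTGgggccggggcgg
MYBBP1A, WDR43 and EBNA1BP2 are among the members that fell with the VPS37B siRNA.

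Against the siCTRL mean, the targeted mRNAs were at 2.52 to 10.2% (VPS37A), 2.08 to 8.78% (VPS37B) and 17.8 to 31.8% (VPS37C) in the 12 libraries that carried each siRNA. All 7 epithelial markers were in the table, with summed levels of 7724 to 12450 TPM. Of these, 6 had a mean of at least 10 TPM, while VIL1 had a mean of 1.99 TPM. Of the leukocyte markers CD14 and CSF1R were present at 4.14 to 9.70 TPM in sum and of the endothelial markers EGFL7 at 1.85 to 7.37 TPM. Of 7 fibroblast markers looked up 0 were matched. Each library is scaled to the same total, so a change in the amount of RNA per cell is not visible, and amplicon efficiency differs between genes, so levels are compared between libraries only.

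**Figure D1:**
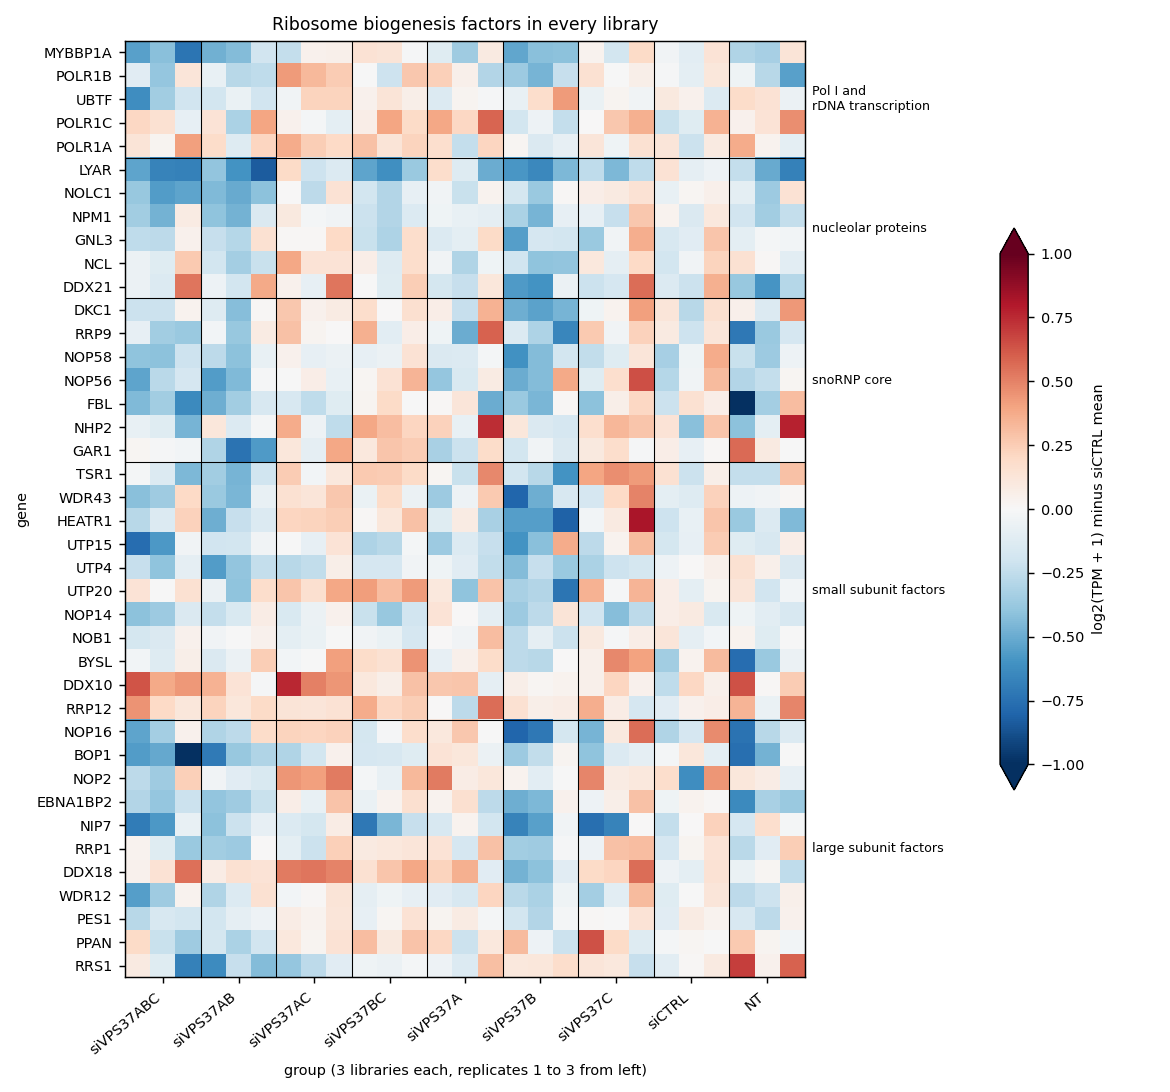
Level of each of the 40 genes in each of the 27 libraries as log2(TPM + 1) minus the mean of the 3 siCTRL libraries, with genes in rows by role and libraries in columns by group. Red is above and blue below the siCTRL mean, and the scale ends at -1 and 1. The siVPS37ABC, siVPS37AB and siVPS37B columns are mostly blue, while siVPS37AC and siVPS37C are mostly pale to red.

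Averaged over the 4 groups with the VPS37B siRNA, most members were lower than without it. This did not hold in siVPS37BC against siCTRL, where the members' median log2 difference was 0.04 against 0.02 for all genes. There 25, 22 and 14 of the 38 tested members were higher within batches 1, 2 and 3. The summed level of the 40 members was 6695 ± 618 TPM in siVPS37ABC, 6545 ± 546 in siVPS37AB, 7623 ± 386 in siVPS37BC and 6590.5 ± 760.3 in siVPS37B, against 8167 ± 369 TPM in siVPS37AC, 7754 ± 139 in siVPS37A, 8153 ± 972 in siVPS37C, 7972 ± 605 in siCTRL and 7021 ± 467 in NT (mean ± SD, n = 3 each). The 3 groups lowest in this sum all carried the VPS37B siRNA, but NT lay below siVPS37BC, which also carried it. The sum is weighted towards high genes such as NPM1 (mean of 2068 TPM over all libraries). On the mean of log2(TPM + 1) over the members, siVPS37BC (6.56) lay above siCTRL (6.53). The effect of a siRNA was taken as the mean of the 4 groups that received it minus the mean of the 4 transfected groups that did not, on the log2(TPM + 1) scale, which understates changes of low genes. For the VPS37B siRNA, 12 of the 38 tested members fell and 0 rose. Of all 6458 tested genes, 7.54% fell and 16.2% passed the threshold in either direction (limma, Benjamini-Hochberg adjusted p under 0.05). The difference was negative for 36 of the 38 members, with a median of -0.19 on the log2 scale against -0.0011 for all tested genes, and RRP12 and DDX10 were the 2 members above 0. Within batches 1, 2 and 3 the median was -0.18 each time, and 34, 36 and 34 of the 38 members were lower. The effects of the 3 siRNAs are drawn from the same 24 transfected libraries.

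Among the nucleolar proteins, 3 of 6 fell. LYAR, a nucleolar zinc-finger protein linked to pre-ribosomal RNA processing and cell growth, ranged from 222 to 307 TPM with the siRNA (median 264, 12 libraries), against 281 to 455 TPM without it (median 363, 12 libraries). All 12 libraries with the siRNA lay below the median of those without it, and the difference was -0.44 ± 0.08, adjusted p = 0.000272 (log2, ± SE here and below). NOLC1, a chaperone of snoRNPs that moves between the nucleolus and Cajal bodies, ranged from 280.4 to 417 TPM with the siRNA (median 319.8, 12 libraries), against 346 to 459 TPM without it (median 422, 12 libraries). Again all 12 libraries were below the other median, with a difference of -0.32 ± 0.06, adjusted p = 0.00119. NPM1 (nucleophosmin), an abundant nucleolar chaperone whose many processed copies in the genome make its reads less certain, fell by 0.25 ± 0.07 (adjusted p = 0.0135). NCL, GNL3 and DDX21 had differences of -0.17, -0.19 and -0.08 that did not pass.

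Of the 4 tested genes of ribosomal DNA transcription, 2 fell. MYBBP1A, a nucleolar protein that restrains RNA polymerase I and takes part in pre-ribosomal RNA processing, ranged from 57.6 to 106 TPM with the siRNA (median 71.6, 12 libraries), against 74.9 to 109.6 TPM without it (median 96.2, 12 libraries). The ranges overlap, with all 3 siVPS37BC libraries (106, 105 and 95.2 TPM) above the other 9 libraries that carried the siRNA, and the difference was -0.28 ± 0.07, adjusted p = 0.00824. POLR1B, the second-largest subunit of RNA polymerase I, ranged from 9.55 to 16.6 TPM with the siRNA (median 11.5, 12 libraries), against 10.9 to 18.6 TPM without it (median 14.5, 12 libraries), with a difference of -0.27 ± 0.08, adjusted p = 0.0243. UBTF, which binds and opens ribosomal DNA, and POLR1C, a subunit shared by RNA polymerases I and III, had -0.09 and -0.09 and did not pass. POLR1A, the catalytic subunit, had 0.01 ± 0.08 in the fit without the 10 TPM filter.

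The small subunit factors contributed 3 falls among 10 tested genes. TSR1, a factor of late small subunit maturation, ranged from 46.6 to 85.2 TPM with the siRNA (median 62.1, 12 libraries), against 60.6 to 99.5 TPM without it (median 77.8, 12 libraries), with a difference of -0.32 ± 0.08, adjusted p = 0.0102. HEATR1, a large scaffold protein of the early small subunit processome, ranged from 14.0 to 31.3 TPM with the siRNA (median 22.2, 12 libraries), against 20.0 to 45.3 TPM without it (median 26.9, 12 libraries), with a difference of -0.31 ± 0.09, adjusted p = 0.0232. WDR43, a partner in the same early complex, had -0.32 ± 0.09, adjusted p = 0.0232. For these 3 genes 9 or 10 of the 12 libraries with the siRNA lay below the median of the others. UTP15, UTP4, NOP14, NOB1 and BYSL had smaller negative differences that did not pass, as did UTP20 (-0.14 ± 0.09, fit without the filter), while DDX10 had 0.00 and RRP12 0.12.

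Of the 11 large subunit factors all had negative differences and 3 fell. BOP1, which joins PES1 and WDR12 in the PeBoW complex needed for large subunit RNA processing, ranged from 24.5 to 50.9 TPM with the siRNA (median 39.5, 12 libraries), against 37.5 to 55.0 TPM without it (median 47.3, 12 libraries), with a difference of -0.30 ± 0.08, adjusted p = 0.0156. EBNA1BP2 had -0.26 ± 0.07, adjusted p = 0.0118, and NOP16 had -0.34 ± 0.11, adjusted p = 0.0383. PES1 and WDR12 had -0.15 and -0.16 and did not pass, so within the PeBoW complex BOP1 was the one called. Of the 7 snoRNP core proteins, all 7 were negative and DKC1, the pseudouridine synthase of box H/ACA particles, fell (-0.26 ± 0.08, adjusted p = 0.0367). The differences of the others in that group, FBL, NOP56, NOP58, NHP2, GAR1 and RRP9, lay between -0.23 and -0.14.

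With the batch as a block in the model, 22 members fell and 0 rose. With the number that ends each library description as a term, 7 fell and 0 rose. Shares of all tested genes are given for the main fit alone. Counts of members under other fits, here and below, therefore have no such share to be read against. LYAR, NOLC1, MYBBP1A, TSR1, EBNA1BP2, NPM1, BOP1 and WDR43 stayed past the threshold whichever 1 library was left out, but of these EBNA1BP2 (adjusted p = 0.186), NPM1 (0.0918) and BOP1 (0.0714) were lost with the library number as a term, as were HEATR1 (0.274), NOP16 (0.159) and POLR1B (0.232). HEATR1 did not without siCTRL replicate 3 (adjusted p = 0.0513), POLR1B without siVPS37A replicate 1, siVPS37ABC replicate 2 or siVPS37BC replicate 2 (at most 0.0546), DKC1 without any of 12 of the 24 libraries (at most 0.0753) and NOP16 without any of 16 (at most 0.0825).

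**Figure D2:**
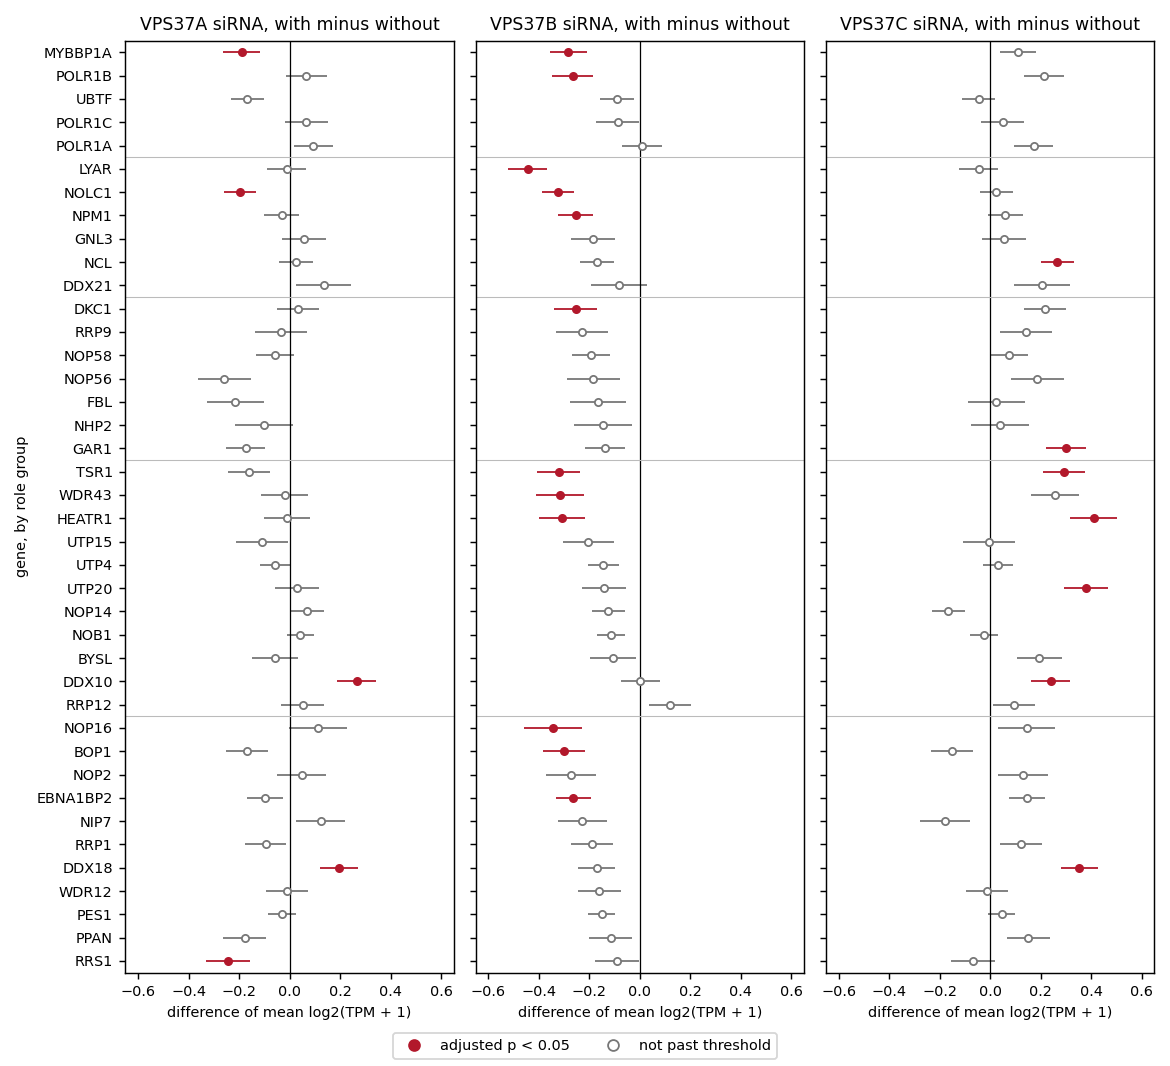
Difference in mean log2(TPM + 1) between the 4 groups with each siRNA and the 4 transfected groups without it for all 40 genes, with SE bars (12 libraries against 12) and filled points past the threshold. Points lie left of 0 for 36 of the 38 tested members for VPS37B and right of 0 for 29 for VPS37C. UTP20 and POLR1A come from the fit without the filter.

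Of the 10 members that fell for the VPS37B siRNA and had a promoter sequence, 3 held the E-box (30%), against 8 of the 24 members that did not pass (33.3%), UTP20 and POLR1A included. The median difference for the VPS37B siRNA was -0.20 in the 10 tested members with the E-box and -0.19 in the 22 without it.

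The VPS37B siRNA was present in 1 group of each of 4 pairs that differ in siRNA by it alone and share no library. These are siVPS37B against siCTRL, siVPS37AB against siVPS37A, siVPS37BC against siVPS37C and siVPS37ABC against siVPS37AC. Only siVPS37ABC and siVPS37AC carried the same library number in every batch (80, 84 and 88). In the other pairs the siRNA and that number cannot be fully told apart. The median difference of the 38 members was -0.25, -0.21, -0.04 and -0.29 in the 4 pairs, in that order. For all tested genes it was -0.02, 0.03, 0.03 and -0.04. In all 4 pairs 21 members (55.3%) were lower, and 16.8% of the tested genes were. LYAR was among them, with -0.56, -0.46, -0.19 and -0.58. TSR1, with -0.35, -0.43, -0.19 and -0.31, was as well. RRP12, needed for export of both subunits in yeast, was higher in all 4 pairs, with 0.10, 0.07, 0.19 and 0.12.

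Of the 4 pairs siVPS37BC against siVPS37C was the one with little difference. The other pair with VPS37C depleted on both sides, siVPS37ABC against siVPS37AC, had a median of -0.29. MYBBP1A measured 106, 105 and 95.2 TPM in siVPS37BC, against 98.7, 84.6 and 109.6 TPM in siVPS37C, and the groups overlap. It measured 66.7, 71.5 and 72.2 TPM in siVPS37B, against 93.7, 89.5 and 106 TPM in siCTRL, with no overlap. The comparisons of siVPS37BC with siVPS37C and of siVPS37AB with siVPS37A were added after the members' group means had been seen, as were 4 others named below. No member was called in siVPS37BC against siVPS37C (limma, 1 member at an unadjusted p under 0.05, 0 with the batch block, 0.031% of all genes called). In siVPS37AB against siVPS37A 0 were called (8 at an unadjusted p under 0.05, 3 lower with the batch block, 2.09% of all genes called).

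**Figure D3:**
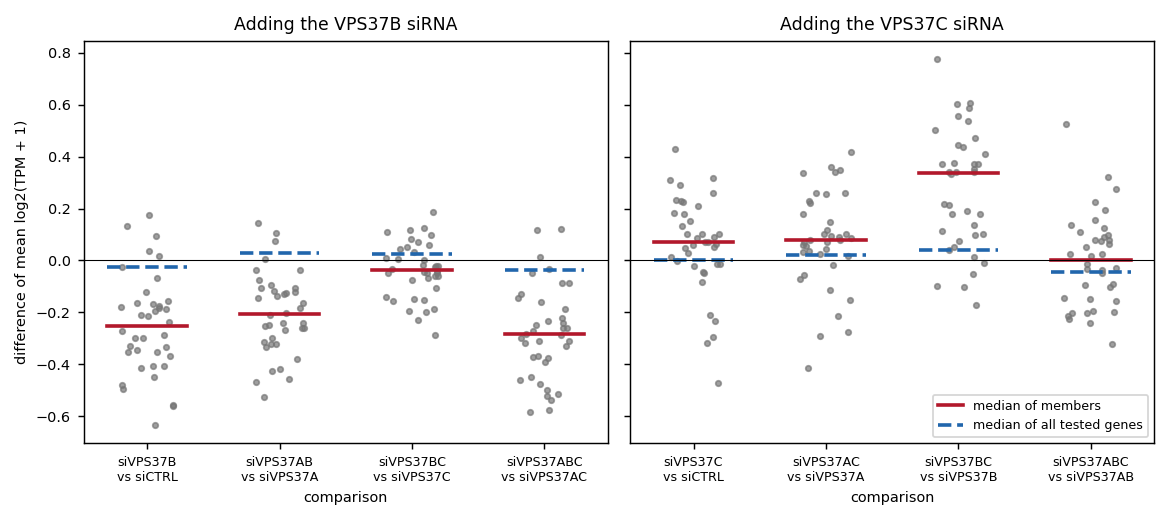
Difference in mean log2(TPM + 1) for each of the 38 tested members (points), with 3 libraries a group. The 4 pairs of groups on each side differ in siRNA by VPS37B alone (left) or VPS37C alone (right). Library numbers also differ within most pairs. The median of the members (solid line) lies below that of all tested genes (dashed) in all 4 VPS37B pairs, at -0.29 to -0.04, and above it in the VPS37C pairs, most in siVPS37BC against siVPS37B, at 0.34.

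Averaged over the groups with the VPS37C siRNA, most members were higher than without it. This did not hold in siVPS37ABC against siVPS37AB, where 19 members were higher and 19 lower, with a median of 0.0002. For the VPS37C siRNA, 6 of the 38 tested members rose and 0 fell, where 4.99% of all tested genes rose and 10.5% passed in either direction. The difference was positive for 29 of the 38, with a median of 0.10 against 0.01 for all genes. Within batches 1, 2 and 3 the medians were 0.126, 0.145 and 0.063, with 29, 29 and 22 of the 38 members higher.

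DDX18, an RNA helicase of large subunit assembly (Has1 in yeast), ranged from 55.8 to 79.9 TPM with the siRNA (median 68.3, 12 libraries), against 38.8 to 69.4 TPM without it (median 54.5, 12 libraries). All 12 libraries with the siRNA lay above the median of those without it, and the difference was 0.35 ± 0.07, adjusted p = 0.00215. HEATR1 ranged from 20.8 to 45.3 TPM with the siRNA (median 28.5, 12 libraries), against 14.0 to 30.9 TPM without it (median 21.6, 12 libraries), with a difference of 0.41 ± 0.09, adjusted p = 0.00407. The highest of its values came from siVPS37C replicate 3, and its call held without that library. GAR1, a core protein of box H/ACA particles, ranged from 19.9 to 28.0 TPM with the siRNA (median 22.8, 12 libraries), against 12.3 to 24.2 TPM without it (median 18.8, 12 libraries), with all 12 above the other median and a difference of 0.30 ± 0.08, adjusted p = 0.0131. NCL (nucleolin), which binds nascent pre-ribosomal RNA, ranged from 447 to 638 TPM with the siRNA (median 531, 12 libraries), against 369.5 to 569 TPM without it (median 427, 12 libraries), again with all 12 above the other median (0.27 ± 0.07, adjusted p = 0.00985).

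TSR1 (0.29 ± 0.08, adjusted p = 0.0248) and DDX10 (0.24 ± 0.08, adjusted p = 0.0448) completed the 6. UTP20, a scaffold of small subunit assembly under the 10 TPM filter, ranged from 6.73 to 9.43 TPM with the siRNA (median 8.54, 12 libraries), against 3.68 to 8.48 TPM without it (median 6.38, 12 libraries), and its difference in the fit without the filter was 0.38 ± 0.09, adjusted p = 0.00502.  Tested on its own in the 4 pairs that share no library, the siRNA gave medians of 0.07 in siVPS37C against siCTRL, 0.08 in siVPS37AC against siVPS37A, 0.34 in siVPS37BC against siVPS37B and 0.0002 in siVPS37ABC against siVPS37AB, and 14 members (36.8%) were higher in all 4, against 15.2% of genes.

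With the batch as a block 12 members rose, with the library number as a term 14, and with a mean of at least 50 TPM required 3, with 0 falling each time. Leaving out 1 library gave 4 (without siVPS37AB replicate 2) to 7. DDX10 lost its call without any of 16 of the 24 libraries (adjusted p at most 0.0910) and under both other scalings, and TSR1 without siCTRL replicate 2 or siVPS37AB replicate 2 (at most 0.0525).

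The 2 siRNAs were compared directly by setting the mean of siVPS37B and siVPS37AB against the mean of siVPS37C and siVPS37AC, which equals the VPS37B effect minus the VPS37C effect. On this difference 15 of the 38 members were lower and 0 higher, where 7.49% of genes were lower and 16.9% passed. HEATR1 (-0.72 ± 0.13, adjusted p = 0.00044), TSR1 (-0.61 ± 0.12, adjusted p = 0.000828) and DDX18 (-0.52 ± 0.10, adjusted p = 0.00102) had the smallest p-values. They were followed by NCL, WDR43, POLR1B, EBNA1BP2, DKC1, GAR1, MYBBP1A, NOLC1, LYAR, NPM1, NOP16 and NOP2, at -0.57 to -0.31. With the batch block and with the library number 24 members were lower in each, and leaving out 1 library gave 12 to 18.

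Of the 4 VPS37C pairs, siVPS37BC against siVPS37B had the largest median difference. In each batch these 2 groups carried different library numbers (siVPS37BC 80, 84 and 89, siVPS37B 81, 85 and 603). This pair alone therefore does not separate the siRNA from that number. There 4 members rose and 0 fell, where 1.55% of genes rose and 3.11% passed. HEATR1 measured 25.6, 27.5 and 31.3 TPM in siVPS37BC, against 17.0, 17.0 and 14.0 TPM in siVPS37B (0.78 ± 0.18, adjusted p = 0.0206). DDX18 measured 60.1, 65.8 and 70.8 TPM in siVPS37BC, against 38.8, 40.4 and 49.9 TPM in siVPS37B (0.60 ± 0.15, adjusted p = 0.0234). MYBBP1A (0.54 ± 0.14, adjusted p = 0.0394) and DKC1 (0.61 ± 0.17, adjusted p = 0.0427) also rose. In all 4 genes the groups did not overlap, but the share of all genes without overlap was not counted for this pair. The difference was positive for 33 of the 38 members. The batch block gave 11 members that rose and the library number 7, but leaving out any 1 of the 6 libraries left 0 (siVPS37B replicate 1, siVPS37BC replicate 2 or 3) to 2. The test of whether siVPS37BC departs from the sum of siVPS37B and siVPS37C called 0 members and 0 of all genes (limma, 3 members and 300 genes at an unadjusted p under 0.05, 0 members with the batch block), with a positive departure for 32 of 38 members and a median of 0.20 against 0.05 for all genes. In siVPS37AC against siVPS37A 0 members were called (limma, 5 at an unadjusted p under 0.05, 0 with the batch block, 0.496% of genes called).

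The VPS37A siRNA moved 29.1% of all tested genes, and in neither direction did the members' calls exceed the share of all genes in the main fit. Of the 38 tested members 2 rose and 3 fell, where 20.9% of genes rose and 8.13% fell, and the members' median was -0.03 against 0.06 for all genes. DDX10, a small subunit helicase (Dbp4 in yeast), ranged from 46.4 to 84.3 TPM with the siRNA (median 64.0, 12 libraries), against 41.5 to 61.1 TPM without it (median 51.6, 12 libraries), with a difference of 0.27 ± 0.08, adjusted p = 0.0111. DDX18 rose by 0.20 ± 0.07 (adjusted p = 0.0469). NOLC1 (-0.20 ± 0.06, adjusted p = 0.0236), RRS1 (-0.24 ± 0.09, adjusted p = 0.0372), which in yeast helps place the RNA and proteins of a small ribonucleoprotein particle in the large subunit, and MYBBP1A (-0.19 ± 0.07, adjusted p = 0.0482) fell.

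Within batches the medians were 0.01, -0.07 and -0.06. After quantile normalization or median-of-ratios scaling 0 members rose and 8 fell, the calls of DDX10 and DDX18 being lost in both. With the batch block 3 rose and 6 fell, with the library number 5 rose and 3 fell, where NOLC1 (adjusted p = 0.159) and MYBBP1A (0.0944) were lost, and leaving out 1 library gave 1 (without siVPS37AC replicate 2) to 8 (without siVPS37A replicate 3) calls in all. DDX10 held without any 1 library, NOLC1 was lost without siVPS37AC replicate 2 (adjusted p = 0.0556), RRS1 without any of 15 of the 24 libraries (at most 0.0808), and DDX18 and MYBBP1A without any of 17 (at most 0.0995 and 0.0954).

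When all 3 paralogs were depleted, 5 members fell and 1 rose against siCTRL, where 8.32% of all genes fell, 13.6% rose and 21.9% passed. The difference was negative for 32 of the 38 tested members, with a median of -0.21 against 0.03 for all genes. Within batches 1, 2 and 3 the medians were -0.19, -0.20 and -0.23. In each batch the 2 groups carried different library numbers (siVPS37ABC 80, 84 and 88, siCTRL 88, 88 and 603). Agreement between batches therefore does not separate the groups from that number. All 3 siVPS37ABC libraries lay below all 3 siCTRL libraries for 9 members, and above them for 2, where 14.4% of genes lay below and 20.8% above. This and the other comparisons with siCTRL share its 3 libraries.

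BOP1 measured 33.6, 34.7 and 24.5 TPM in siVPS37ABC, against 49.2, 54.1 and 46.5 TPM in siCTRL, a difference of -0.69 ± 0.17, adjusted p = 0.00398. LYAR measured 275, 250.3 and 248 TPM in siVPS37ABC, against 439.9, 373 and 383 TPM in siCTRL (-0.62 ± 0.15, adjusted p = 0.00423). For both genes every siVPS37ABC library was below every siCTRL library. MYBBP1A measured 65.5, 71.7 and 57.6 TPM in siVPS37ABC, against 93.7, 89.5 and 106 TPM in siCTRL (-0.56 ± 0.14, adjusted p = 0.0057), with the widest gap in batch 3. NOLC1 measured 319, 280.4 and 288 TPM in siVPS37ABC, against 394, 420.1 and 429.5 TPM in siCTRL (-0.49 ± 0.13, adjusted p = 0.00744). These 4 genes stayed past the threshold without any 1 of the 6 libraries.

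UBTF measured 22.3, 27.1 and 30.3 TPM in siVPS37ABC, against 37.2, 35.8 and 31.5 TPM in siCTRL (-0.39 ± 0.13, adjusted p = 0.0383). The groups were apart, but siVPS37ABC replicate 3 was close to siCTRL replicate 3, and the call was lost without replicate 1 or 2 of either group (adjusted p at most 0.206). DDX10 went the other way, with 77.3, 64.8 and 67.3 TPM in siVPS37ABC, against 41.5, 57.3 and 51.3 TPM in siCTRL (0.48 ± 0.15, adjusted p = 0.0255). Its call was lost without siCTRL replicate 1 or siVPS37ABC replicate 1 (at most 0.147), and after quantile normalization and median-of-ratios scaling, under each of which 9 members fell and 0 rose. With the library number as a term both UBTF (adjusted p = 0.0706) and DDX10 (0.0506) were lost. Leaving out siVPS37ABC replicate 3 gave 9 calls and leaving out siVPS37ABC replicate 1 gave 4. Against NT in place of siCTRL, NOLC1, MYBBP1A and UBTF were still called and BOP1 (-0.28, adjusted p = 0.233), LYAR (-0.15, adjusted p = 0.521) and DDX10 (0.18, adjusted p = 0.432) were not.

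**Figure D4:**
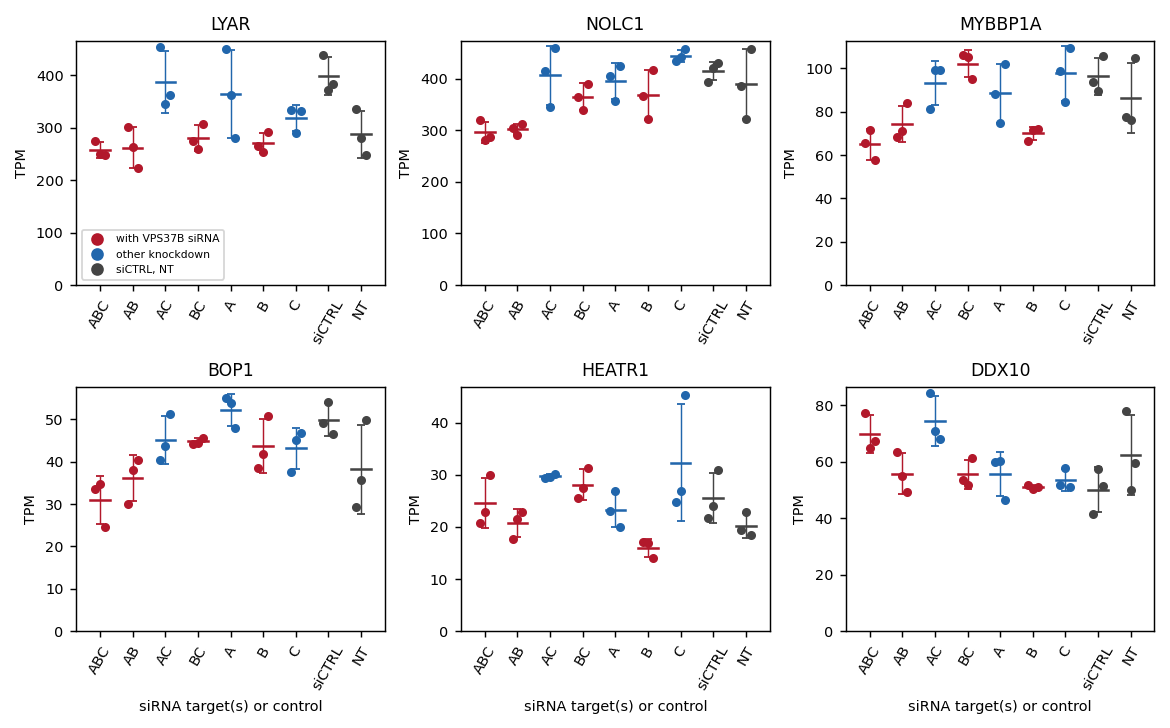
TPM of 6 members in each of the 27 libraries by group, with the mean (horizontal bar) and SD (error bar) of the 3 libraries of each group; red marks groups that carried the VPS37B siRNA, blue the other knockdowns and grey siCTRL and NT. The red LYAR points lie between 222 and 307 TPM and the siCTRL points between 373 and 439.9 TPM, and the NT points of LYAR lie within or near the red range. DDX10 is highest in siVPS37ABC and siVPS37AC.

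In siVPS37AB against siCTRL 4 members fell and 0 rose, where 3.61% of genes fell and 14.8% passed, with 32 of 38 negative and a median of -0.21. LYAR measured 302, 263 and 222 TPM in siVPS37AB, against 439.9, 373 and 383 TPM in siCTRL (-0.61 ± 0.15, adjusted p = 0.00808). NOLC1 measured 305, 291 and 311 TPM in siVPS37AB, against 394, 420.1 and 429.5 TPM in siCTRL (-0.45 ± 0.13, adjusted p = 0.0183). GAR1 measured 17.0, 12.3 and 14.0 TPM in siVPS37AB, against 22.2, 20.0 and 21.4 TPM in siCTRL (-0.53 ± 0.16, adjusted p = 0.0223), and of the other 24 libraries only siVPS37A replicate 1 fell within the siVPS37AB range. UTP4, a small subunit factor whose mutation underlies North American Indian childhood cirrhosis, had -0.40 ± 0.12, adjusted p = 0.029. All 4 genes were below siCTRL in every library, as were 10 of the 38 tested members and 11.2% of all genes.

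Single libraries decided several of these calls, and leaving out 1 left 1 or 2 of them. LYAR was lost without siVPS37AB replicate 3 (adjusted p = 0.0605), and NOLC1, GAR1 and UTP4 without any of 4, 4 and 5 of the 6 libraries (at most 0.0649, 0.113 and 0.155). With the library number as a term 3 of the 4 were lost, LYAR (adjusted p = 0.0618), NOLC1 (0.0881) and UTP4 (0.442). Against NT in place of siCTRL LYAR (-0.13, adjusted p = 0.604) and NOLC1 (-0.35, adjusted p = 0.0612) were lost. No siVPS37AB library (numbers 80, 84 and 89) shared its number with a siCTRL library (88, 88 and 603). Blocking by batch gave 7 members that fell, with median-of-ratios scaling 9. That scaling moved the median of all genes by -0.10, and the members' median lay 0.29 below the median of all genes with and without it. The test of whether siVPS37AB departs from the sum of siVPS37A and siVPS37B called 0 members and 0 of all genes (limma, 1 member and 483 genes at an unadjusted p under 0.05, 0 members with the batch block), the smallest p-values among members being those of RRS1 (-0.60 ± 0.25) and HEATR1 (0.47 ± 0.26).

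In siVPS37AC against siCTRL 2 members rose and 0 fell, where 3.07% of genes rose and 4.4% passed. DDX10 measured 84.3, 71.0 and 67.8 TPM in siVPS37AC, against 41.5, 57.3 and 51.3 TPM in siCTRL (0.57 ± 0.15, adjusted p = 0.0345), and DDX18 measured 78.1, 78.7 and 76.6 TPM in siVPS37AC, against 52.2, 50.5 and 59.8 TPM in siCTRL (0.52 ± 0.15, adjusted p = 0.0418). Neither gene overlapped between the groups, where 5 of the 38 tested members and 17.9% of all genes lay above siCTRL in every library. DDX10 was lost without siCTRL replicate 1 or 3 or siVPS37AC replicate 1 or 2 (adjusted p at most 0.170), DDX18 without any of the 6 libraries (at most 0.150), and both after quantile normalization or median-of-ratios scaling.

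No member was called in siVPS37B against siCTRL (limma, 15 members at an unadjusted p under 0.05, 1.72% of genes called), although 33 of 38 were negative with a median of -0.25, and 10 members lay below siCTRL in all libraries, where 9.59% of genes did. LYAR measured 266, 254 and 292 TPM in siVPS37B, against 439.9, 373 and 383 TPM in siCTRL (-0.56 ± 0.15, adjusted p = 0.0605). HEATR1 measured 17.0, 17.0 and 14.0 TPM in siVPS37B, against 21.8, 24.0 and 30.9 TPM in siCTRL (-0.64 ± 0.18, adjusted p = 0.0766). Under the batch block 8 members fell. The medians within batches 1, 2 and 3 were -0.31, -0.32 and -0.26. Only in batch 3 did siVPS37B and siCTRL share a library number (603).

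The other knockdowns called no member against siCTRL. In siVPS37A (1 member at an unadjusted p under 0.05, 0 with the batch block, 1.83% of genes called) the smallest p-values were those of POLR1C (0.39 ± 0.17, adjusted p = 0.315) and NHP2 (0.30 ± 0.23, adjusted p = 0.645). In siVPS37C (5 members at an unadjusted p under 0.05, 0 with the batch block, 0.496% of genes called) they were those of TSR1 (0.43 ± 0.17, adjusted p = 0.434) and NIP7 (-0.47 ± 0.20, adjusted p = 0.491). TSR1 measured 93.8, 98.2 and 95.7 TPM in siVPS37C, against 79.0, 61.1 and 73.9 TPM in siCTRL, with no overlap. In that comparison 3 members and 5.56% of all genes lay above siCTRL in every library. In siVPS37BC (2 members at an unadjusted p under 0.05, 2 with the batch block, 1.29% of genes called) they were those of LYAR (-0.51 ± 0.15, adjusted p = 0.124) and NIP7 (-0.47 ± 0.20, adjusted p = 0.327).

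Against the pair knockdowns, siVPS37ABC differed from siVPS37AC, which lacks the VPS37B siRNA, by 4 members that fell and 0 that rose, where 1.89% of genes fell and 4.35% passed. UBTF measured 22.3, 27.1 and 30.3 TPM in siVPS37ABC, against 33.9, 40.7 and 40.8 TPM in siVPS37AC (-0.52 ± 0.13, adjusted p = 0.0211). LYAR (-0.58 ± 0.15, adjusted p = 0.0285), MYBBP1A (-0.52 ± 0.14, adjusted p = 0.0375) and NOLC1 (-0.45 ± 0.13, adjusted p = 0.0432) also fell. For 15 members all 3 siVPS37ABC libraries were below all 3 siVPS37AC libraries, where 13.2% of genes were. With the batch block 11 members fell and with the library number 10, with median-of-ratios scaling 2, and leaving out 1 library left 0 to 2, each of the 4 calls being lost without 4 or 5 of the 6 libraries (adjusted p at most 0.141 for UBTF and MYBBP1A, 0.199 for LYAR and 0.21 for NOLC1).

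Against siVPS37BC 3 members fell and 0 rose, where 4.55% of genes fell and 12% passed. MYBBP1A measured 65.5, 71.7 and 57.6 TPM in siVPS37ABC, against 106, 105 and 95.2 TPM in siVPS37BC (-0.65 ± 0.14, adjusted p = 0.00325), and held without any 1 of the 6 libraries. UBTF (-0.46 ± 0.13, adjusted p = 0.0229) and BOP1 (-0.54 ± 0.17, adjusted p = 0.0369) were each lost without any of 4 of the 6 (at most 0.126 and 0.206). With the batch block 8 members fell and with the library number 5. Against siVPS37AB no member was called (limma, 3 at an unadjusted p under 0.05, 1 with the batch block, 1.04% of genes called), and the smallest p-values were those of GAR1 (0.53 ± 0.16, adjusted p = 0.124) and DDX10 (0.32 ± 0.15, adjusted p = 0.549).

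Between siCTRL and NT no member was called (limma, 5 at an unadjusted p under 0.05, 3.17% of genes called). EBNA1BP2 measured 744, 785 and 774 TPM in siCTRL, against 494, 613 and 594 TPM in NT (0.44 ± 0.14, adjusted p = 0.0927). LYAR measured 439.9, 373 and 383 TPM in siCTRL, against 336, 279.7 and 248 TPM in NT (0.47 ± 0.15, adjusted p = 0.0966). For both genes the siCTRL libraries were above all NT libraries, as they were for 4 of the 38 tested members and 9.8% of all genes. With the batch block 4 members were called higher in siCTRL. The siVPS37ABC libraries, below siCTRL for LYAR, overlapped NT.

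Across the 9 group means the median pairwise Pearson's r was 0.487 among the 38 members and 0.0336 among all tested genes, given as a description of 9 points that share batches and library numbers. After removal of the group means it was 0.171 among members and 0.0588 among all genes over the 27 libraries. PES1 (0.941), WDR43 (0.932) and NOP58 (0.928) were closest to the mean of the other members over the 9 groups. RRP12 (-0.267), RRS1 (0.00129), DDX10 (0.0379), NOP14 (0.162) and NIP7 (0.211) followed it least. Of the 38 members 13 had their lowest group mean in siVPS37B, 12 in siVPS37ABC and 6 in siVPS37AB, and 12 had their highest in siVPS37AC and 10 in siVPS37C.

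Other genes of the pathway, from lists of small subunit, large subunit, snoRNP, RNA polymerase I and exosome factors that hold no member, were tested in 104 cases. For the VPS37B siRNA 15 of them fell (14.4%, against 7.54% of all genes) and 1 rose, with 87 negative. For the VPS37C siRNA 6 rose (5.77%, near the 4.99% of all genes) and 0 fell, with 83 positive. For the VPS37A siRNA 10 rose and 8 fell (9.62 and 7.69%, where 20.9 and 8.13% of all genes did). In siVPS37ABC against siCTRL 7 fell (6.73%, under the 8.32% of all genes) and 3 rose.

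Of 9 other RNA polymerase I genes tested, 3 fell in siVPS37ABC against siCTRL, namely the subunit POLR1E (-0.61 ± 0.13, adjusted p = 0.00131), CD3EAP, its partner subunit (-0.76 ± 0.19, adjusted p = 0.00392), and ZNRD1 (-0.81 ± 0.21, adjusted p = 0.00636). Of 39 small subunit factors 3 fell, PNO1 (-0.50 ± 0.15, adjusted p = 0.0139), BUD23 and RIOK1. Of 35 large subunit factors SBDS (0.61 ± 0.17, adjusted p = 0.00946) and NMD3 (0.43 ± 0.13, adjusted p = 0.0204), which act in the late steps of large subunit export and activation, rose and NIFK fell. Of 13 exosome genes C1D rose (0.86 ± 0.18, adjusted p = 0.00112), and of 8 snoRNP factors none was called, the smallest p-values being those of RUVBL2 (-0.29, adjusted p = 0.2) and ZNHIT6 (0.28, adjusted p = 0.375).

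The cytosolic ribosomal proteins, which the factors assemble with ribosomal RNA and which have many processed copies in the genome, were called in few cases. Of 70 tested, 3 rose and 3 fell in siVPS37ABC against siCTRL, with a median of -0.03; RPS25 fell (-0.51 ± 0.13, adjusted p = 0.0054) and RPL34 (1.24 ± 0.33, adjusted p = 0.00717) and RPL9 (0.39 ± 0.13, adjusted p = 0.0252) rose. For the VPS37B siRNA 0 rose and 2 fell, and for the VPS37C siRNA 5 rose and 0 fell.

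Of 7 tested genes of the MAX transcription factor network 4 rose and 0 fell in siVPS37ABC against siCTRL, where 13.6% of all genes rose. The 4 were MXD1 (1.65 ± 0.155, adjusted p = 2.03e-08), MXD4 (1.00 ± 0.19, adjusted p = 0.000308), MXI1 (0.81 ± 0.17, adjusted p = 0.00127) and MNT (0.75 ± 0.18, adjusted p = 0.00335), which encode repressors that pair with MAX at E-boxes. MYC, the activator that pairs with MAX there, had 0.23 ± 0.16 (adjusted p = 0.331) and did not pass. For the VPS37B siRNA MXD4 (0.66 ± 0.09), MNT (0.42 ± 0.09) and MXD1 (0.41 ± 0.08) rose, and MYC had -0.22 ± 0.08 (adjusted p = 0.0638). For the VPS37A siRNA 6 rose, MYC among them (0.55 ± 0.08, adjusted p = 1.16e-05). For the VPS37C siRNA none was called (limma), MXD4 (-0.22) and MXD1 (-0.17) being the 2 at an unadjusted p under 0.05. Of 19 listed MYC targets outside the ribosome pathway 1 fell and 0 rose in siVPS37ABC, namely CDK4 (-0.45 ± 0.14, adjusted p = 0.0168). For the VPS37B siRNA 4 of them fell and 0 rose. The share of promoters with the E-box was not counted for this list.

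Some genes of proliferation fell for each siRNA. Of 17 tested, 9 fell in siVPS37ABC against siCTRL, led by RRM2 (-1.68 ± 0.19, adjusted p = 3.45e-07), TPX2 (-0.78 ± 0.12, adjusted p = 2.55e-05) and TYMS (-0.68 ± 0.12, adjusted p = 0.000125). For the VPS37B siRNA 6 fell, for the VPS37A siRNA 9 fell, where 3 members fell, and for the VPS37C siRNA 3 fell, where 6 members rose. Of 4 tested genes of the p53 axis list, CDKN1A (2.74 ± 0.26, adjusted p = 2.5e-08), SESN2 (1.13 ± 0.19, adjusted p = 7.36e-05) and GDF15 (1.65 ± 0.32, adjusted p = 0.00043), all known p53 targets, rose in siVPS37ABC. Whether these genes and the members share a cause was not tested.

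**Figure D5:**
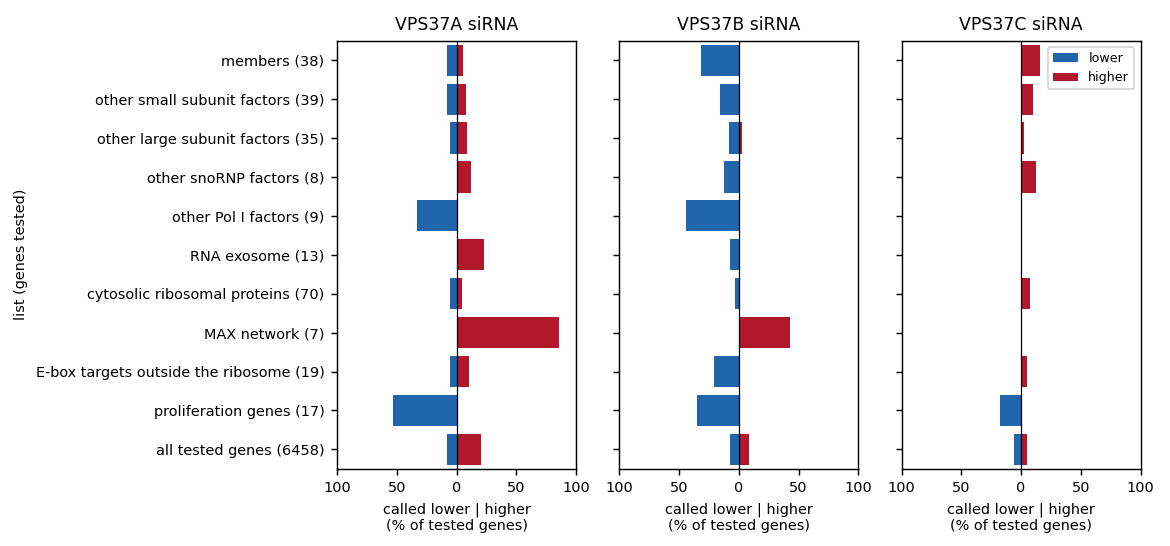
Share of the tested genes of each list that fell (blue, left of 0) or rose (red, right of 0) for each siRNA, in percent, with the number of genes tested in brackets. For the VPS37B siRNA the bar of the members reaches 31.6% lower, against 7.54% for all tested genes, and for the VPS37C siRNA it reaches 15.8% higher, against 4.99%. Lists under 10 genes move by large steps. The list drawn as E-box targets outside the ribosome is a list of MYC targets, for which promoters with the E-box were not counted.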

How the data were processed

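RNA of 27 DLD1 libraries (9 groups of 3) was sequenced with an amplicon panel, per the labels' protocols. The authors deposited 1 table whose columns each sum to 1000000 and are read as TPM, although it is described as normalized; per the submitters' processing notes HTSeq 0.6.0, DESeq2 1.18.1 and hg19 were named, without roles. Whole reads could not be recovered, so the depth is unknown and no counting error is given. Left out were 2157 lines without an identifier. Groups came from the labels.

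The tests used limma 3.58.1 with trend (R 4.3.3) on log2(TPM + 1) of 6458 genes whose mean reached 10 TPM, with 9 group means, 18 residual degrees of freedom, and Benjamini-Hochberg adjustment over all tested genes within each of 15 planned and 6 added comparisons, the added ones chosen after seeing the data (threshold 0.05; median SE between groups 0.17). The count models planned could not be used on TPM. Tables and figures were made with Python 3.11.15, pandas 2.3.3 and matplotlib 3.10.9, and the fit was tested on simulated data. UTP20 and POLR1A come from a fit without the filter.

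Alternatives were the batch as a block, the number ending each library description, other scalings, filters and pseudocounts, NT as the comparison group, the compared groups alone, and leaving out each library. Replicate numbers are batches in the labels and so pair the libraries. Deviations of same-numbered libraries from their group means correlated at 0.36 on average (lowest -0.39) and those of others at -0.18. Deviations sum to 0 within each group, so the second value follows largely from the first and adds no separate evidence. The members and lists were chosen with earlier results of these data known. Values per library are given for members past the threshold in siVPS37ABC against siCTRL or in at least 2 other comparisons, and others are named where called or, where none was, for the 2 smallest p-values. From other lists up to 3 genes past the threshold in siVPS37ABC are named, or 2 where none passed; MNT and MYC were named after their values were seen.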

Additional observations from a re-analysis of the deposited data

How the results depend on the processing

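No called gene changed sign under any alternative, but the split of calls for the VPS37A siRNA moved to 0 higher and 8 lower under both scalings, and the members' median in siVPS37AC against siCTRL, 0.08, became -0.0021 after median-of-ratios scaling. That scaling moved the median of all genes by over 0.1 in siVPS37AB against siCTRL alone (-0.10). Of 42 gene calls, 42 held with the batch block, 29 with the library number, 36 after quantile normalization and 34 after median-of-ratios scaling. The depth is unknown and each group has 3 libraries, so differences near the SE of 0.17 could not be resolved; the causes of the shifts were not tested.

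The counts of called members (threshold 0.05) moved with several alternatives. No share of all genes is given for these fits, so whether the members moved more than other genes was not tested. The batch block gave 8 for siVPS37B, 7 for siVPS37AB and 2 for siVPS37BC against siCTRL, 4 for siCTRL against NT, 1, 11 and 8 for siVPS37ABC against siVPS37AB, siVPS37AC and siVPS37BC, and 9, 22 and 12 for the VPS37A, VPS37B and VPS37C siRNAs. The blocked fit lost no call of a named gene. With the library number as a term they were 5 for siVPS37AC and 1 for siVPS37BC against siCTRL, 3 for siCTRL against NT, 10 and 5 for siVPS37ABC against siVPS37AC and siVPS37BC, and 8, 7 and 14 for the 3 siRNAs. Quantile normalization gave 1 for siVPS37B, 0 for siVPS37AC and 8 for the VPS37A siRNA. Median-of-ratios scaling gave 9 for siVPS37AB, 0 for siVPS37AC, 2 for siVPS37ABC against siVPS37AC and 8 for the VPS37A siRNA. NT in place of siCTRL gave 1 for siVPS37B, 2 for siVPS37C, 4 for siVPS37AC and 2 for siVPS37BC. Fitting the compared groups alone gave 1 for siVPS37AC and 1 for siVPS37ABC against siVPS37AC. A mean of at least 50 TPM gave 1 for siVPS37ABC against siVPS37BC and 3 for the VPS37C siRNA.

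Leaving out 1 library gave 4 to 9 calls for siVPS37ABC, 1 to 2 for siVPS37AB and 0 to 1 for siVPS37AC against siCTRL, 0 to 1 for siCTRL against NT, 0 to 2 for siVPS37ABC against siVPS37AC, 1 to 3 against siVPS37BC and 0 to 0 against siVPS37AB. It gave 1 to 8, 9 to 16 and 4 to 7 for the VPS37A, VPS37B and VPS37C siRNAs, and 0 throughout for siVPS37A, siVPS37B, siVPS37C and siVPS37BC against siCTRL and for the departure of siVPS37AB from a sum. Of the 6 comparisons added after seeing the data, siVPS37BC against siVPS37B gave 11 with the block, 7 with the library number and 0 to 2 without 1 library, siVPS37AB against siVPS37A gave 3, 0 and 0 to 1, and the VPS37B minus VPS37C difference gave 24, 24 and 12 to 18; the other 3 gave 0 throughout. The highest count for the VPS37B siRNA came without siVPS37ABC or siVPS37B replicate 3.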
